A study of Mus musculus with 5 samples.

Results

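The tumour necrosis factor (TNF) superfamily was read in mouse spleen on 5 2-colour microarrays. The family was taken as every probe whose gene symbol begins with Tnfrsf or Tnfsf, or is Tnf, Lta, Ltb, Ltbr, Cd40, Cd40lg, Cd27, Cd70, Fas or Fasl. This choice uses names only and no measured value. It gave 62 probes for 39 genes, 16 ligands and 23 receptors, out of 14654 named genes. Cd27 had no probe in the annotation used here. A value on every array was present for 22 of the 39 genes, 6 ligands and 16 receptors, against 8969 of all named genes. A further 12 genes had values on some arrays, and 5 (Cd70, Tnfrsf10b, Tnfrsf23, Tnfsf15 and Tnfsf4) on none.

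Each array carried RNA of 1 mutant spleen, labelled with Cy5, and RNA of a pool of wild-type spleens, labelled with Cy3, with 15 ug of amplified RNA per dye. The knockout group (S6-/-, Sirt6 knockout) had 2 arrays. The heterozygous group (S6-/- RA+/-, Sirt6 knockout and heterozygous for Rela) had 3 arrays, so that both groups lacked Sirt6 and only the second also carried a single copy of Rela. Sirt6 encodes a chromatin-bound deacetylase, and Rela a DNA-binding subunit of NF-kB, a transcription factor of inflammation. The labels give no age, sex or strain, and they do not say how many spleens the pool held.

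TNF family ligands are trimeric proteins, most of them anchored in the cell membrane, and their receptors fall into those with a death domain, which can start apoptosis, those that bind TRAF adaptors, and decoys that bind ligand without signalling. Most signalling receptors activate NF-kB, and several family genes are themselves NF-kB targets. In the spleen, lymphotoxin and TNF from lymphocytes organise the white pulp through Ltbr and Tnfrsf1a on stromal cells, and the ligand Tnfsf13b (BAFF) keeps B cells alive through Tnfrsf13c.

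Values are log2 ratios of mutant spleen over pool, centred on each array, and lie above 0 where the mutant spleen was brighter. The sources used here state neither log base nor direction. Wild-type RNA was present only as the pool, so ratios to it hold no spread between wild-type spleens, and dyes were not swapped. Pool and dye are the same for both groups, which leaves their difference free of a shared shift. Changes were tested with limma (adjusted p is by the Benjamini-Hochberg method over all 8969 genes, called under 0.05). A value marked SE is limma's standard error, which rests on the spread of all 5 arrays. Ratios give no level, so genes are not compared for how strongly they are expressed.

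Checks of the labels concern the whole series. Of 2 Sirt6 probes 1 had no value and the other had only -4.31 on heterozygous array 2, which does not allow a check of the knockout. Rela lay at 0.48 and 1.07 (knockout), and at -0.084 and -0.20 on heterozygous arrays 2 and 3. On the library labelled heterozygous 1 it lay at 1.15, the level of the knockout arrays. The 3 Y-linked genes measured lay between 1.45 and 2.96 above the pool on all arrays, so sex and genotype cannot be told apart in the comparisons with the pool. Heterozygous array 3 stood apart over the whole series. Over 8969 genes its Pearson correlation was -0.18 and -0.040 with knockout arrays 1 and 2. With heterozygous arrays 1 and 2 it was 0.22 and -0.013. The other pairs of arrays correlated at 0.35 to 0.85. The array also stood apart in this family, as described below, and results of the heterozygous group are therefore also given without it.

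The promoters of a few members are shown because NF-kB binds the kB motif, and Rela dosage is what separates the groups by their labels. The windows are the 250 bases before each gene's start, from RefSeq (GRCm38.p6), searched on both strands for the kB consensus. Of 29 member genes with such a window 4 held a match (Ltb, Tnfrsf8, Tnfrsf9 and Tnfrsf25), or 13.8%, against 8.23% of the 27025 genes with a window. A match describes the letters only. Ltb and Tnf are shown because they are neighbours on chromosome 17, with Lta on the other side of Tnf, and their values differed, as given below. Capitals mark the match, which lies 87 to 78 bases before the start of Ltb. The Tnf window held none.
Ltb, chr17:35194257-35194506, plus strand: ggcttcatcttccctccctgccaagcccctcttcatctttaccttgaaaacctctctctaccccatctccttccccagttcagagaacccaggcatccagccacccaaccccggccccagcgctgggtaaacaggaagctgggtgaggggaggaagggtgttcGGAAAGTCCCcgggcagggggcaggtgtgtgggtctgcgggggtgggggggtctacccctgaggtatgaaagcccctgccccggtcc
Tnf, chr17:35202008-35202257, minus strand: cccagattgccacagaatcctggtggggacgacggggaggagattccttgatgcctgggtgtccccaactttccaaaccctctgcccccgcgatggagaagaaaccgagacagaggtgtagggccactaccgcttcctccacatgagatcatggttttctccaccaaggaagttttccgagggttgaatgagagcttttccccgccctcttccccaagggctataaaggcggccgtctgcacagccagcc

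The matches of Tnfrsf9 and Tnfrsf25, T cell costimulatory receptors, lay before a second start inside the gene, and only the bases around them are shown. The Tnfrsf9 match is made of overlapping sites.
Tnfrsf9, chr4:150927946-150927975, plus strand: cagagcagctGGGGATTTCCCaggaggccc
Tnfrsf25, chr4:152116305-152116334, plus strand: aaaggggtctGGGGGCCTCCacttctcaga

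Read array by array, the 6 ligands and 16 receptors with a value on every array lay mostly below the pool on heterozygous array 3. On that array 20 of the 22 members lay below the pool, 6 of 6 ligands and 14 of 16 receptors, where 50.8% of all genes did. Elsewhere 9 members were below the pool on knockout array 1, 11 on knockout array 2, 11 on heterozygous array 1 and 6 on heterozygous array 2, against 49.7, 49.3, 52.5 and 43.5% of all genes. The exceptions among these 22 on heterozygous array 3 were Ltbr, at 0.083, and Tnfrsf21, at 0.37. Of members with blank cells, Tnfsf10 (3.58), Cd40lg (0.43), Tnfsf9 (0.25) and Tnfrsf19 (0.80) lay above the pool there, and Tnfrsf11b (-1.17) below it. Tnfrsf9 lay at -1.89 and 0.84 by its 2 probes. Heterozygous array 3 was the lowest of the 5 arrays for 13 of 22 members (59.1%), against 30.8% of all genes tested.

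The knockout arrays had ligand medians of -0.36 and -0.11, against 0.091, 0.005 and -1.14 on heterozygous arrays 1 to 3. Receptor medians were 0.26 and -0.049 in the knockout, then -0.45, 0.51 and -0.97. Ligands thus lay below receptors on 4 of 5 arrays and above them on heterozygous array 1. The gap between the medians was -0.34 ± 0.39 (SD, n = 2) in the knockout group and -0.043 ± 0.53 (SD, n = 3) in the heterozygous group, both within the spread between arrays. The sign of that gap turned in both groups when genes with some blank cells were let in (to 0.30 for the knockout, 0.48 for the heterozygous group) and when each probe was taken on its own (0.44 and 0.14). In the heterozygous group it also turned without array 2 (0.19) and without array 3 (0.020). The median of all 8969 genes stayed between -0.063 and 0.069 on every array.

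**Figure D1:**
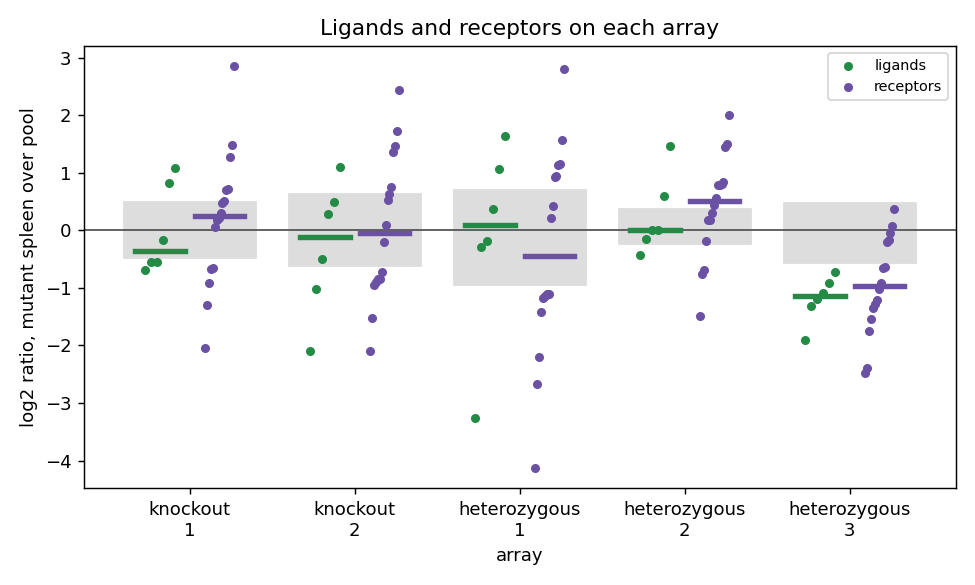
Log2 ratio of mutant spleen over pool (vertical axis) on each array, with 1 point per gene for the 6 ligands and 16 receptors, thick bars at their medians, and grey boxes for the middle 50% of all 8969 genes. On heterozygous array 3 both medians (-1.14 and -0.97) lay below the grey box, and on the other arrays points lay on both sides of 0.

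Markers of spleen cells also differed between the arrays. On heterozygous array 3 erythroid markers (6 of 8 measured) had a median of 1.93, where the knockout had -3.13 and -2.75 and the other heterozygous arrays -1.54 and -0.47. B cell markers (7 of 9 measured) lay at -0.99 there, T cell markers (7 of 9) at -0.81, plasma cell markers (4 of 6) at -1.27, stromal markers (8 of 8) at -1.32 and neutrophil markers (7 of 7) at -0.70. The medians of all these lymphoid, stromal and myeloid lists were thus below the pool on heterozygous array 3, where 20 of 22 members were. The erythroid median was above it. Macrophage and monocyte (-0.51) and dendritic cell markers (-0.16) were also below it there. Low medians were not particular to that array. B cell markers lay at -1.38 on knockout array 2, and on heterozygous array 1 stromal markers lay at -1.08 and neutrophil markers at -0.73. On each of those arrays 11 of 22 members were below the pool. The part of these cells in the result was not tested. In whole spleen, fewer cells of a type and less RNA per cell cannot be told apart.

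In Sirt6 knockout spleens, among the 22 members with a value on every array, the receptors Tnfrsf11a and Ltbr had the highest mean ratios to the pool, and the receptor Tnfrsf14 and the ligand Tnfsf14 the lowest. Receptors of B cells also lay below the pool. No member passed the threshold, and limma called 0.0% of all genes in this comparison (0 of 8969; the smallest adjusted p among members was 0.127). At an unadjusted p under 0.05 there were 4 members of 22, against 20.5% of all genes. Of these, 2 were higher (background 10.8%) and 2 lower (background 9.7%). Both arrays lay on the same side of the pool for 18 of 22 members, against 82.2% of all genes. The 10 above it compare with 41.6% and the 8 below it with 40.6% of all genes. The members' share was near the background by each of these counts.

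Among TRAF-binding receptors, Tnfrsf11a encodes RANK, the receptor for the osteoclast factor Tnfsf11 (RANKL), which is also used by dendritic cells. Tnfrsf11a read 2.85 and 2.44 in the knockout, then 2.80, 0.78 and -0.043 from heterozygous array 1 to array 3. The knockout arrays and the library labelled heterozygous 1 were high, and heterozygous arrays 2 and 3 were not, a split also seen for Rela. The median of 5 endothelial markers split the same way, at 1.05 and 1.46, then 0.87, -0.15 and -0.78. The split is thus not particular to Rela, and its cause was not tested. The knockout mean of Tnfrsf11a was 2.65 ± 0.65 (SE, n = 2, limma adjusted p = 0.127). The ligand Tnfsf11 lay on the other side of the pool, at -0.55 and -0.51.

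Ltbr encodes the receptor of lymphotoxin and of Tnfsf14 (LIGHT), through which stromal cells build lymphoid tissue. The knockout arrays read 1.27 and 1.46, and heterozygous arrays 1 to 3 read 1.16, 0.78 and 0.083. Ltbr was the only member measured on every array that lay above the pool on all 5. Its knockout mean was 1.36 ± 0.37 (SE, n = 2, limma adjusted p = 0.139).

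Tnfrsf14 encodes HVEM, another receptor of Tnfsf14, which also binds the inhibitory receptor BTLA of lymphocytes. Its values were -2.05 and -2.09 in the knockout, then -2.66, -1.49 and -0.18 in the heterozygous group, below the pool throughout. The knockout mean was -2.07 ± 0.57 (SE, n = 2, limma adjusted p = 0.144). The ligand Tnfsf14 was itself below the pool in the knockout, at -0.54 and -2.10, so that of this ligand and its receptors only Ltbr was above it.

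The B cell receptors were lower than the pool on both knockout arrays. Tnfrsf13b (TACI), which binds Tnfsf13b and restrains B cells, lay at -0.67 and -1.52. Tnfrsf13c, the survival receptor for the same ligand, lay at -1.30 and -0.73, and Cd40, the receptor for T cell help, at -0.92 and -0.84. These receptors are carried by B cells, and the ligand Ltb, made by B and T cells, was in the same range (-0.68 and -1.03).

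Their knockout means were -1.09 ± 0.39 for Tnfrsf13b, -1.01 ± 0.46 for Tnfrsf13c, -0.88 ± 0.37 for Cd40 and -0.86 ± 0.39 for Ltb (SE, n = 2), with limma adjusted p of 0.199, 0.275, 0.248 and 0.277. All 7 measured B cell markers lay below the pool in the knockout mean, between -0.85 (Cd22) and -1.48 (Cr2), with array medians of -0.83 and -1.38. The members' means fell within about the same range as the markers', and the part of B cell number was not tested. The 2 probes of Tnfrsf13b differed by 2.00 on knockout array 2 and by 3.09 on heterozygous array 1, so its value depends on the probe. The 3 probes of Cd40 differed by at most 0.47 on any array.

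The ligand Tnfsf13b (BAFF), made by myeloid and stromal cells, lay above the pool where its receptors lay below it, at 0.82 and 0.49 in the knockout (mean 0.66 ± 0.67, SE, n = 2, limma adjusted p = 0.594). Tnfsf12 (TWEAK), a ligand of injured tissue, lay at 1.07 and 1.11, and its receptor Tnfrsf12a (Fn14) at 0.48 and 1.73. This pair was above the pool on both arrays. The mean of Tnfsf12 was 1.09 ± 0.55 (SE, n = 2, limma adjusted p = 0.310).

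Receptors with a death domain lay on both sides of the pool. The knockout mean was 0.93 ± 0.64 for Tnfrsf25, a costimulatory receptor of T cells, 0.41 ± 0.57 for Tnfrsf1a, the main receptor of TNF, 0.048 ± 0.70 for Fas and -0.42 ± 0.68 for Tnfrsf21 (SE, n = 2). Fas and Tnfrsf21 lay on both sides within the group. A second probe of Tnfrsf25 (21018), left out for its blank on heterozygous array 3, read 0.027 and -0.37 on the knockout arrays, where the probe used read 0.50 and 1.36, so its value depends on the probe. The 2 probes of Tnfrsf1a differed by 2.13 on knockout array 2 and by 3.38 on heterozygous array 1. Tnfrsf26, a mouse receptor next to Tnfrsf22 on chromosome 7, lay at 1.49 and 0.63, and its neighbour Tnfrsf22, a decoy for the death ligand Tnfsf10 (TRAIL) in mouse, at 0.17 and -0.94.

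Costimulatory receptors of T cells differed from each other although Tnfrsf4 (OX40) and Tnfrsf18 (GITR) are neighbours on chromosome 4. Tnfrsf4 lay at 0.22 and 0.53, and Tnfrsf18 at -0.66 and -0.85. T cell markers had medians of 0.31 and 0.092 on these arrays. Tnfrsf1b, the TNF receptor of lymphocytes and myeloid cells, lay at 0.70 and 0.76. Macrophage and monocyte markers, of which 4 of 8 were measured, had medians of 1.37 and 0.39, and neutrophil markers 2.21 and 0.88, and the part of these cells in the myeloid members was not tested.

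The outcome of the test rested on the spread of the heterozygous arrays, since the fit shares it between groups. The median SD of the members was 0.31 over the knockout and 1.20 over the heterozygous arrays, against 0.24 and 0.66 for all genes. When limma saw only the 2 knockout arrays, it called 15 of 22 members, against 42.8% of all genes. Without heterozygous array 3, 176 genes were called and 0 members.

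**Figure D2:**
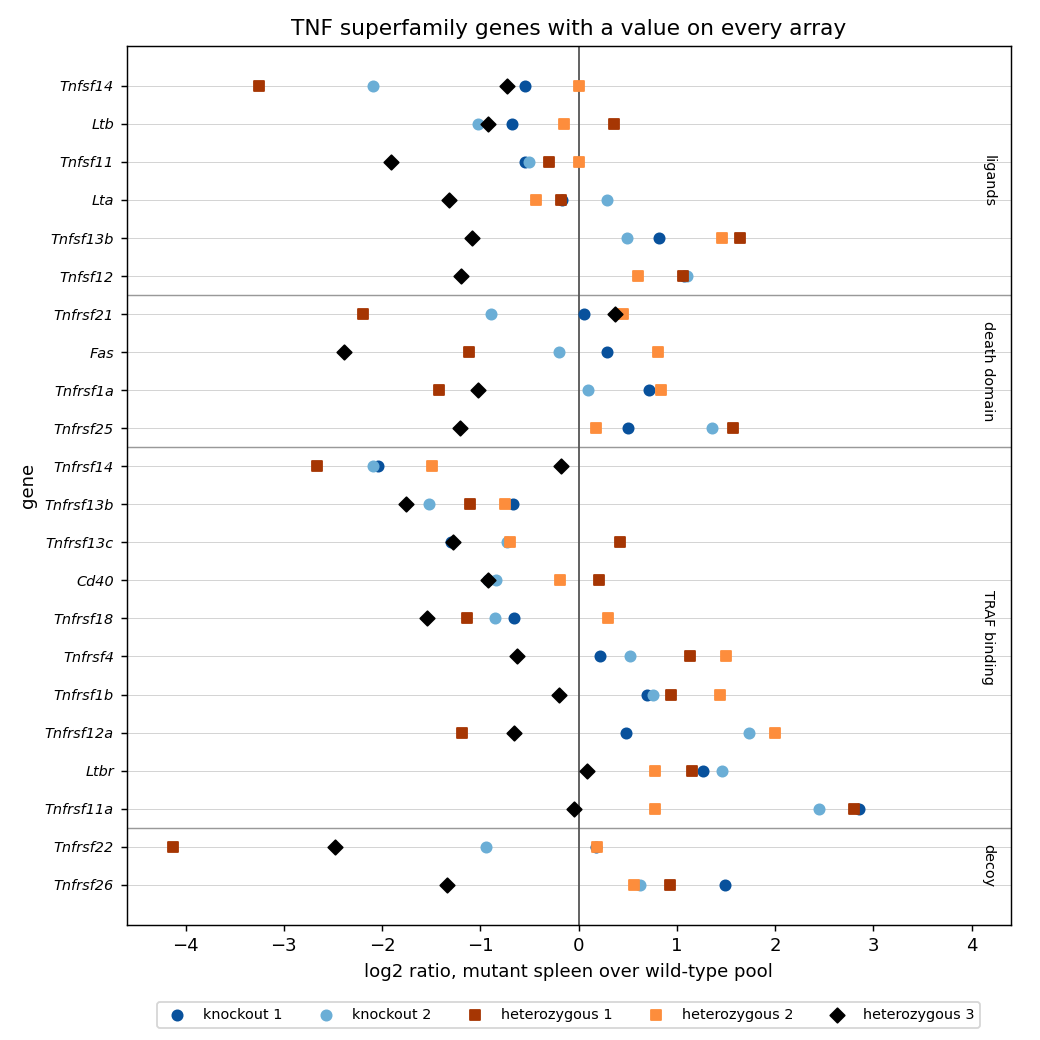
Log2 ratio of mutant spleen over pool (horizontal axis) for each of the 22 genes with a value on every array, with 1 point per array, grouped into ligands and classes of receptor. Tnfrsf11a reaches furthest right in the knockout, Tnfrsf14 lies left of 0 on all arrays, and the black diamonds of heterozygous array 3 lie left of 0 for 20 genes.

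In Sirt6 knockout spleens heterozygous for Rela, the 22 members with a value on every array had no shared direction beyond that of heterozygous array 3. Tnfrsf13b (as the mean of its 2 probes), Tnfrsf14 and the ligand Lta lay below the pool on all 3 arrays, and Ltbr above it. No member passed the threshold, and limma called 0.334% of all genes (30 of 8969; the smallest adjusted p among members was 0.265). At an unadjusted p under 0.05 there were 3 members of 22 against 13.5% of all genes, with 0 higher (background 5.59%) and 3 lower (background 7.88%). The 4 members on 1 side of the pool on all 3 arrays compare with 31.9% of all genes, the 1 above it with 17.5% and the 3 below it with 14.3%. The median of all 22 members was 0.013, 0.37 and -1.06 on heterozygous arrays 1, 2 and 3.

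Tnfrsf13b lay at -1.11, -0.75 and -1.76 on heterozygous arrays 1, 2 and 3, with a mean of -1.20 ± 0.32 (SE, n = 3, limma adjusted p = 0.265) and of -0.93 without array 3. Its mean was -2.06 by probe 1417 and -0.35 by probe 35872, which read 0.44 on heterozygous array 1, above the pool. Cd40 lay at 0.21, -0.19 and -0.92, and Tnfrsf13c at 0.42, -0.70 and -1.28. B cell markers had medians of -0.043, -0.22 and -0.99 on the same arrays. Cd40 and Tnfrsf13c were highest on the array where the median of the B cell markers was highest, and lowest where it was lowest. Single markers differed in this. Cd79b (-0.98, -0.22 and -1.57), Blk (-1.15, -0.65 and -1.345) and Fcer2a (0.13, 1.08 and 0.47) were highest on array 2, as was Tnfrsf13b. The other measured B cell markers were highest on array 1.

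The mean of Tnfrsf14 was -1.44 ± 0.47 (SE, n = 3, limma adjusted p = 0.345) and -2.08 without array 3, close to its knockout mean of -2.07. Tnfrsf22 had the lowest mean of the 22 members with a value on every array, -2.14 ± 0.76 (SE, n = 3, limma adjusted p = 0.358), from values of -4.13, 0.19 and -2.48. Heterozygous array 2 was above the pool and the other arrays far below it, so the mean describes none of them. Fas, at -1.11, 0.81 and -2.39, and Tnfrsf1a, at -1.42, 0.84 and -1.03, were likewise above the pool on array 2 alone. For Tnfrsf1a this depends on the probe. Probe 1523 read -3.11, 0.65 and -1.60, and probe 2955 read 0.27, 1.03 and -0.46. Macrophage and monocyte markers had medians of -1.44, 1.24 and -0.51 on these arrays, the highest also on array 2. Of these markers Adgre1 lay at -4.07, 0.26 and -2.26, but Vcam1 lay above the pool throughout, at 1.53, 1.36 and 0.70. The part of these cells in the result was not tested.

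Lta, the soluble lymphotoxin subunit that pairs with membrane-bound Ltb, lay at -0.18, -0.43 and -1.32. Ltb lay at 0.36, -0.15 and -0.92, highest on array 1 like the median of the B cell markers. Tnfsf14 was again spread widely, at -3.26, 0.006 and -0.73, and Tnfsf11 lay at -0.30, 0.004 and -1.91. Tnfsf13b lay at 1.64, 1.46 and -1.08, so its mean of 0.67 ± 0.55 (SE, n = 3, limma adjusted p = 0.556) became 1.55 without array 3. Its 3 probes differed by 2.84 on array 3.

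The costimulatory receptor Tnfrsf4 lay at 1.14, 1.495 and -0.63, and Tnfrsf1b at 0.94, 1.44 and -0.20. These receptors were above the pool on arrays 1 and 2 and below it on array 3, and their means were 1.32 and 1.19 without that array, against 0.67 and 0.73 with it. Tnfrsf18 lay at -1.14, 0.30 and -1.55, on the other side of the pool from its neighbour Tnfrsf4 on array 1. Tnfrsf12a lay at -1.18, 2.00 and -0.66, and its ligand Tnfsf12 at 1.07, 0.60 and -1.20. This pair lay on the same side of the pool on arrays 2 and 3 and on opposite sides on array 1.

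**Figure D3:**
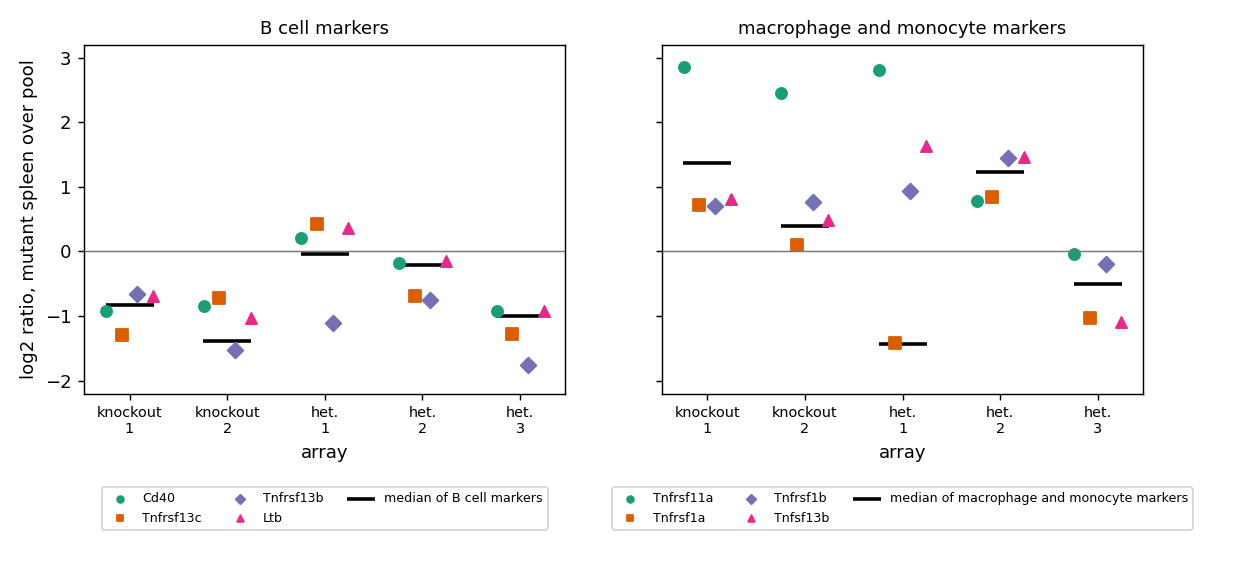
Log2 ratio over pool (vertical axis) on each array for Cd40, Tnfrsf13c, Tnfrsf13b and Ltb beside the median of 7 B cell markers (left, black line), and for Tnfrsf11a, Tnfrsf1a, Tnfrsf1b and Tnfsf13b beside the median of 4 macrophage and monocyte markers (right). Cd40 (0.21), Ltb (0.36) and the B cell median (-0.043) are all at their highest on heterozygous array 1. There Tnfrsf11a (2.80) lies far above the macrophage median (-1.44). Tnfrsf1a (-1.42) is the mean there of 2 probes, at -3.11 and 0.27.

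Whether the single copy of Rela moved the family was read from the difference between the groups, in which pool and dye cancel. No member passed the threshold. Limma called 0.0% of all genes (0 of 8969), and at an unadjusted p under 0.05 there were 0 of 22 members, against 8.46% of all genes (3.04% higher and 5.42% lower). The smallest adjusted p among members was 0.687. The heterozygous mean was lower than the knockout mean for 16 of 22 members, 4 of 6 ligands and 12 of 16 receptors, against 4462 of all 8969 genes. The median difference was -0.16 for members and 0.003 for all genes.

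Among these 22 members Tnfrsf22 and Tnfrsf11a had the widest differences. For Tnfrsf11a it was -1.47 ± 0.84 (SE, n = 3 and 2, limma adjusted p = 0.687), with a 95% confidence interval from -3.48 to 0.55. It is carried by heterozygous arrays 2 and 3, since array 1 lay between the knockout arrays, and it moved to -2.28 without array 1 and to -0.86 without array 3. For Tnfrsf22 it was -1.76 ± 1.20 (SE, n = 3 and 2, limma adjusted p = 0.744), with an interval from -4.63 to 1.12, and it moved to -0.76 without heterozygous array 1 and to -2.92 without array 2.

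The groups did not overlap for 3 of 22 members, against 28.4% of all genes. These were Ltbr, Lta and Tnfsf12, each lower in the heterozygous group, as was so for 14.3% of all genes. Of members, 0 were higher there without overlap, against 14.1% of all genes. Of Ltbr and the lymphotoxin subunits that form its ligand, Ltbr differed by -0.69 ± 0.47, Lta by -0.70 ± 0.50 and Ltb, on the other side, by 0.62 ± 0.51 (SE, n = 3 and 2, limma adjusted p = 0.745, 0.759 and 0.792). Without heterozygous array 3 these differences were -0.39, -0.37 and 0.96, and that of Ltb was 0.32 without array 1. The gap between the groups was small beside the spread. For Lta the nearest arrays lay at -0.17 (knockout 1) and -0.18 (heterozygous 1), and for Tnfsf12 at 1.07 on both.

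Of the 6 among these 22 whose heterozygous mean was higher, the first were Tnfrsf14 (0.63 ± 0.74, SE, n = 3 and 2), Ltb, Cd40 (0.58 ± 0.48) and Tnfrsf13c (0.49 ± 0.60). B cell markers differed the same way in 7 of 7 genes, with a median difference of 0.44, though Ms4a1 hardly differed (-0.9395 and -0.938). This direction was not particular to B cells. It also held for natural killer (6 of 6, median 0.94), plasma cell (4 of 4, 0.70), erythroid (6 of 6, 3.23) and exocrine pancreas markers (3 of 3, 2.58). All measured macrophage and monocyte, neutrophil, endothelial and stromal markers differed the other way. The members' intervals reach from -0.57 to 1.73 for Cd40 and from -1.14 to 2.39 for Tnfrsf14. The 95% intervals of all 22 members span 0, and they are wide enough that a log2 difference of 1 in at least one direction lies inside each of them. Leaving out heterozygous array 3 turned the sign of the difference for 5 members. Tnfsf11 went from -0.21 to 0.38, Tnfrsf1b from -0.003 to 0.46, Tnfrsf18 from -0.04 to 0.33, Tnfrsf13b from -0.11 to 0.17 and Tnfrsf14 from 0.63 to -0.008.

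**Figure D4:**
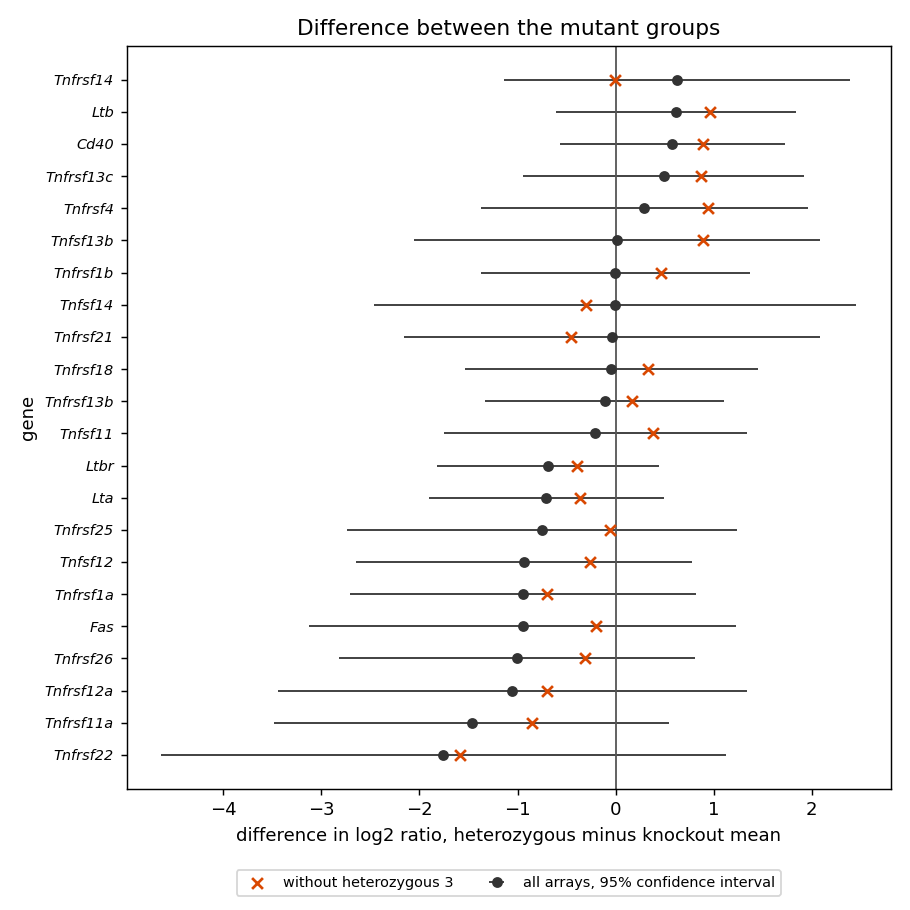
Difference in log2 ratio between the heterozygous and the knockout mean (horizontal axis) for 22 genes, as points with limma's 95% confidence intervals, and as crosses without heterozygous array 3. Every interval crosses 0, from the lowest gene Tnfrsf22 (-1.76) to the highest, Tnfrsf14 (0.63).

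Members with blank cells were not in the tests above, and Tnf itself was one of them. Tnf read 0.19 and 1.15 in the knockout, then 2.82 and 0.67 for heterozygous arrays 1 and 2, with no value on array 3. Tnf was thus above the pool on all 4 arrays with a value, while its neighbours Ltb and Lta reached at most 0.36 and 0.29. Fasl, the ligand of Fas in cytotoxic cells, lay at 0.33 and 0.62, and at 1.17 and 1.98. It too was above the pool on 4 arrays, and higher on heterozygous arrays 1 and 2 than in the knockout, with no value on array 3. In a fit of genes with at least 2 values per group, the difference was 1.10 ± 0.53 for Fasl. For Tnf it was 1.08 ± 0.85 (SE, n = 2 and 2, limma adjusted p = 0.608 and 0.768).

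Tnfsf8 (the ligand of the receptor Tnfrsf8, made by activated T cells) lay at 0.36 and 0.13 on the knockout and at 2.78 and 2.50 on heterozygous arrays 1 and 2. The groups were apart by over 2 units where both had values. In an alternative fit that lets in genes with at least 2 values in each group, and so drops heterozygous array 3 for Tnfsf8, its heterozygous mean was 2.64 ± 0.34 (SE, n = 2, limma adjusted p = 0.0759). This put the groups 2.40 ± 0.47 apart (SE, n = 2 and 2, limma adjusted p = 0.256).

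Tnfrsf17 (BCMA), the receptor that keeps plasma cells alive, lay at -0.03 and -0.75 on the knockout and at 1.57 and 2.93 on heterozygous arrays 1 and 2. In the same alternative fit the difference was 2.64 ± 0.66 (SE, n = 2 and 2, limma adjusted p = 0.330). The median of 4 plasma cell markers was -0.20 and -0.33 in the knockout, then 0.97, 2.01 and -1.27, in the same order on the arrays that share a value. Of these markers Jchain kept that order, at 0.25 and -0.09, then 2.83, 4.02 and -1.16. So did Irf4, which reached only -0.16 and 0.08 on heterozygous arrays 1 and 2. Between the knockout arrays Prdm1 (0.23 and 0.84) and Mzb1 (-0.64 and -0.57) ran the other way. The part of plasma cell number was not tested.

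Other members with blanks lay mostly below the pool or had few values. Tnfrsf19, by probe 15464, was far below the pool, at -2.47 and -2.59 in the knockout and at -1.13 and -5.83 on heterozygous arrays 1 and 2. By probe 21851 it read only 0.80, on heterozygous array 3. Tnfrsf9, a T cell costimulatory receptor, lay by probe 11802 at -2.18 on knockout array 1 and at -2.70, -0.76 and -1.89 on the heterozygous arrays, while its other probe (2272) read 0.84 on heterozygous array 3, on the other side of the pool. Its ligand Tnfsf9 lay at -3.52 on knockout array 1 and at -2.37, -0.60 and 0.25. Tnfsf10 (TRAIL), a death ligand, had 0.86 on knockout array 1 and 1.91 and 3.58 on heterozygous arrays 2 and 3, and was the member most above the pool on array 3. Tnfrsf11b, the soluble decoy for Tnfsf11, had 3.87 on heterozygous array 2 and -1.17 on array 3. Cd40lg, Tnfrsf8 and Tnfsf18 had 1 value each (0.43, -0.17 and -2.68).

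Blanks were not spread evenly. Of 9 member probes with exactly 4 values, 6 lacked the value on heterozygous array 3, where 34.7% of all such spots did, and 1 on heterozygous array 1, where 49.5% did. The sources used here do not state the rule behind the blanks, so a blank does not show that a gene was low. Some genes in the tests had further probes with blanks, which were left out of their values. For Tnfrsf1b such a probe (9544) read -3.73 on knockout array 2, where the probe used read 0.76, and for Tnfrsf21 another (36050) read 3.45 on that array, where the probe used read -0.90.

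Genes that carry the signal inside the cell lay on both sides of the pool. Of 48 listed genes downstream of TNF receptors, 35 had a value on every array, and 0 were called in each of the 3 comparisons. In the knockout 20 lay above and 15 below the pool (median 0.22), against 4508 of all 8969 genes above it (median 0.006). In the heterozygous group 28 lay above and 7 below (median 0.29), against 4513 of all 8969 genes above it (median 0.004). On heterozygous array 3, where 20 of 22 members were below the pool, 16 of these 35 genes were.

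NF-kB inhibitors were among the highest of these genes in the knockout. Nfkbib lay at 2.51 and 2.74 on the knockout and at 0.28, 0.79 and 0.18 on the heterozygous arrays. The groups did not overlap, as for 28.4% of all genes, and the difference was -2.21 ± 0.42 (SE, n = 3 and 2, limma adjusted p = 0.245). Nfkbia lay at 1.34 and 1.57 and at 1.14, 0.76 and -0.90. Both encode proteins that hold NF-kB in the cytoplasm. Rel, a lymphocyte NF-kB subunit, lay below the pool on all 5 arrays, from -0.34 to -3.73, and so did the inhibitor gene Nfkbie.

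Among ubiquitin enzymes and their partners 7 of 8 lay above the pool in the knockout mean, and among death effectors and their brakes 3 of 4. Of all 8969 genes 4508 did. Tnfaip3 (A20), which removes ubiquitin chains from the receptor complex, had a mean of 1.00 ± 0.44, and its partner Tnip2 one of 1.17 ± 0.44 (SE, n = 2, limma adjusted p = 0.264 and 0.212). Cflar, which blocks caspase activation at death receptors, lay at 0.90 and 0.63, and Birc3, a ubiquitin ligase of the same complex, at 0.59 and 1.23. For Tnfaip3, Tnip2 and Cflar the groups did not overlap, each being lower in the heterozygous group, as was so for 14.3% of all genes.

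In the knockout mean 6 of 8 adaptors lay below the pool, and 4 of 7 genes on the list of kinases and their partner proteins, against 4461 of all 8969 genes. Those 4 were the kinase gene Map3k7 and the partners Tab1, Tab3 and Ikbkg. The kinase genes Map3k14 and Ikbkb lay above the pool on both knockout arrays. The adaptor Traf4 lay at -1.77 and -0.95 and the kinase gene Map3k7 (TAK1), which relays receptor signals to NF-kB, at -0.59 and -1.04. Map3k7 lay above the pool on the heterozygous arrays, at 0.77, 0.35 and 0.91, with a difference of 1.49 ± 0.42 (SE, n = 3 and 2, limma adjusted p = 0.390). Traf1, an adaptor of lymphocytes, lay at -0.41 and 0.27 in the knockout and at 3.08, 1.32 and 0.45 in the heterozygous group, where its mean was 1.62 ± 0.50 (SE, n = 3, limma adjusted p = 0.333). The groups did not overlap for Traf1, Traf4 and Map3k7, and for 10 of the 35 genes in all, a share at the background of 28.4%.

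**Figure D5:**
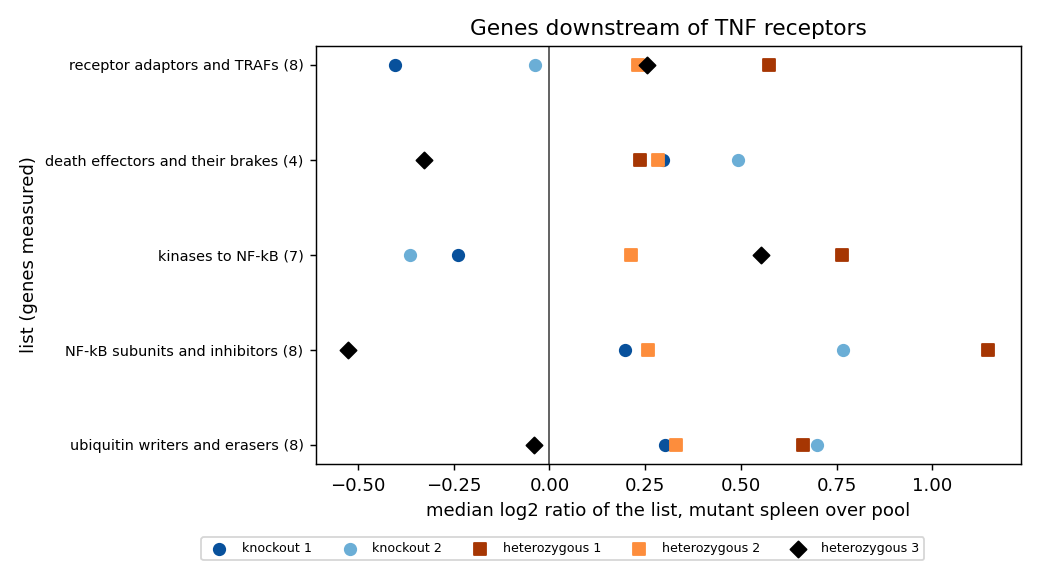
Median log2 ratio over pool (horizontal axis) of 5 lists of genes downstream of TNF receptors, with 1 point per array and the number of genes measured in brackets. The knockout points lie left of the heterozygous points for adaptors and for kinases with their partners, and heterozygous array 3 is the lowest for the other 3 lists.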

How the data were processed

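The members and the gene lists were chosen with earlier results of these data known. The values come from the series' processed table of 38784 spots. Its values were read as log2 ratios of Cy5 (mutant) over Cy3 (pool), deposited by the authors after a normalization and a filter that the sources do not state. RNA was extracted with TRIzol, per the labels' protocols. Spot intensities were not analysed here. Probes were named from the platform annotation. Each array was centred on its median (deposited medians between -0.039 and 0.004), and probes of a gene with a value on all 5 arrays were averaged. Averaging also the probes with blanks, which mixes different probes on different arrays, was an alternative added after seeing the data. All arrays were fitted with limma 3.58.1 (lmFit, eBayes) in R 4.3.3 with a mean per group (3 residual and 3.51 prior degrees of freedom), 2-sided, with Benjamini-Hochberg adjustment at 0.05 over 8969 genes, and the fit was tested on simulated data. The labels call the samples biological replicates without naming animals, so p-values cover only how far these samples differ, which may be technical. The rule named, in each comparison, the 4 ligands and 6 receptors of largest absolute moderated t in full, and up to 3 genes of each downstream list. Alternatives left each array out, used 1 group alone, single probes or genes with at least 2 values per group, took the replicate number as a block, or replaced centring by quantile normalization, scaling to 1 median absolute deviation or uncentred values, or eBayes by its robust form. Sequences are from RefSeq tables of GRCm38.p6, used otherwise only for names and gene order. Figures were drawn with matplotlib 3.10.9.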

Additional observations from a re-analysis of the deposited data

How the results depend on the processing

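No member was called in any comparison under any alternative tried, except that 15 were called in the knockout when only the arrays of the group entered, where 3842 of 8969 genes were called. That fit has 1 residual degree of freedom. Of 400 repeats of the values of named members, 388 kept their direction and their side of the threshold, 9 passed it (all with only the knockout arrays) and 3 turned sign, namely Tnfsf13b in the heterozygous group by probe 27757 (-0.056), and the difference of Tnfsf11 with the replicate block (0.38) and without heterozygous array 3 (0.38), with a range from -0.58 to 0.38 as each array was left out. Over all genes, the 0 called in the knockout ranged from 0 to 176 as each array was left out, and the 0 of the difference stayed at 0. The 30 called in the heterozygous group ranged from 0 to 3, and became 2 with scaling to the same median absolute deviation and 0 with genes on at least 2 arrays of each group, with each probe on its own and with only the arrays of the group. The gap between ligand and receptor medians in the knockout, -0.34, moved to 0.30 and 0.44 with genes on at least 2 arrays and with single probes, and ranged from -0.61 to -0.059 as each array was left out. That of the heterozygous group, -0.043, turned to 0.48 and 0.14 under the same settings and to 0.18 with all probes of a gene averaged, the alternative chosen after seeing the data, and ranged from -0.34 to 0.19. The groups share replicate numbers but not a stated litter or batch. Deviations of same-numbered arrays from their group means correlated at -0.48 for number 1 and -0.45 for number 2. With 2 knockout arrays these deviations mirror each other, so the check cannot decide whether the numbers pair the samples. With the replicate block the difference had 49 genes called and 0 members. The cause of these changes was not tested. Precision is limited by 2 and 3 arrays, and no signal over background was available.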
